A study of Mus musculus with 82 samples.

Results

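The genes described here are 10 members of the YAP and Hippo system: the coactivator gene Yap1, the kinase genes Lats2 and Nuak2, the scaffold genes Amotl2 and Ajuba, and the target genes Ccn1, Ccn2, Ankrd1, F3 and Thbs1. They were taken by gene symbol, as all probe sets annotated to these symbols alone, which gave 21 of the 45037 probe sets and 10 of the 18193 genes measured. Ccn1 had 4 probe sets, Lats2 6, Ankrd1, Thbs1 and Yap1 2 each, and the other genes 1, and where a gene had several, the brightest in a cell type stands for it. In RefSeq (GRCm38.p6) the regulator genes are Yap1 (chr9:7931999-8004638), Lats2 (chr14:57689662-57746212), Amotl2 (chr9:102717091-102733418), Ajuba (chr14:54567469-54577661) and Nuak2 (chr1:132316125-132333488). The target genes are Ccn1 (chr3:145646971-145649985), Ccn2 (chr10:24595442-24598683), Ankrd1 (chr19:36111965-36119844), F3 (chr3:121723537-121735052) and Thbs1 (chr2:118111876-118127133).

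In the Hippo pathway a chain of kinases ending in LATS1 and LATS2 phosphorylates YAP and its relative TAZ and so keeps them out of the nucleus. When these kinases are inactive, YAP and TAZ enter the nucleus, bind TEAD transcription factors and raise genes such as Ccn1 and Ccn2, and several of the genes they raise, among them Lats2, Amotl2 and Nuak2, act back on the pathway. AMP-activated protein kinase (AMPK), an energy sensor of the cell, is known to phosphorylate YAP and angiomotin family proteins.

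Messenger RNA was measured on Affymetrix arrays in mouse embryonic fibroblasts (MEFs, 23 arrays) and in primary hepatocytes (59 arrays), all from C57BL/6 mice. In each cell type, cells without the catalytic AMPK subunits (AMPK α1-/-/α2-/-, called dKO) and control cells (WT) received 991, a direct AMPK activator, or AICAR, a nucleoside that cells convert to an AMP mimic, or the DMSO vehicle, for 4 h. MEFs received 10 µM 991 or 2 mM AICAR, and hepatocytes 3 µM 991 or 300 µM AICAR. The MEF groups were dKO with 991, dKO with AICAR, dKO with vehicle, WT with AICAR and WT with vehicle (4 arrays each) and WT with 991 (3 arrays). The hepatocyte groups had 10 arrays each, 9 for dKO with vehicle, from 2 biological replicates per genotype, called preparations here, with up to 5 technical replicates each. The labels call the arrays of a MEF group technical replicates, so a p-value in MEFs measures only the spread between arrays, and genotype cannot be told apart from any other difference between the dKO and WT cultures. Hepatocytes had been isolated with collagenase and kept overnight on collagen in medium with dexamethasone.

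Values are log2 intensities, differences are in log2 units ± SE, and a gene is called at a Benjamini-Hochberg adjusted p under 0.05 over all 18193 genes in limma. Where groups are said not to overlap, this describes the values of that gene only, as the share of all genes without overlap was not counted. The median intensity per array spanned 6.16 to 6.25 among MEF arrays and 5.88 to 6.08 among hepatocyte arrays. Each array correlated at 0.9973 or above with the mean of the rest of its group. The 7 hepatocyte markers averaged 13.34 to 13.59 in the hepatocyte groups and 5.60 to 5.74 in the MEF groups. The 10 fibroblast and stellate markers averaged 6.69 to 6.82 in the dKO MEF groups and 7.98 to 8.21 in the WT MEF groups. The probe set of Prkaa1, the AMPK α1 gene, read 7.90 to 8.55 in dKO MEFs and 7.70 to 8.53 in WT MEFs, and 4.21 to 4.83 in dKO hepatocytes and 4.81 to 5.93 in WT hepatocytes. That of Prkaa2, the α2 gene, read 5.76 to 6.12 in dKO MEFs and 5.99 to 6.33 in WT MEFs, and 9.37 to 9.75 in dKO hepatocytes and 9.52 to 9.85 in WT hepatocytes. Whether these probe sets lie in the deleted parts of the genes was not given in the sources used here, so they do not check the genotype labels.

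The hepatocyte preparations deviated in mirror image in dKO and WT. The difference between preparations 1 and 2 had a median size over genes of 0.0551 in dKO and 0.053 in WT, but of 0.0016 once averaged over both genotypes. Whether a term for the replicate number was removed before deposit was not given in the sources used here. Treatments were compared within preparations, where this difference cancels, whereas dKO and WT hepatocytes were compared across it. Over genes, the difference correlated between dKO and WT at -1 over all treatments and at -0.774 with vehicle. The comparison of dKO with WT took the preparations as independent, so its SE and p-values carry this limit.

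Promoter windows, from 250 bases before to 50 bases after the transcription start, were matched by symbol in RefSeq (GRCm38.p6) for 7 of the 10 genes, with 2 windows for Lats2. The TEAD core motif GGAATG, searched on both strands, was found for 6 of the 7 genes, and in 14.7% of all 32851 windows of the same length. F3 had no TEAD match but 2 matches to the AP-1 motif TGANTCA, which 7.81% of all windows hold. The CArG box of serum response factor was in none of these windows and in 1.63% of all. The windows of Ccn1, Ankrd1, Amotl2 and Ajuba are shown because they hold TEAD matches while the 4 genes answered the activators in different directions. Capitals mark the motif or its reverse complement, and each window is written 5′ to 3′ on the gene's own strand.
Ccn1 (chr3:145649936-145650235, minus strand): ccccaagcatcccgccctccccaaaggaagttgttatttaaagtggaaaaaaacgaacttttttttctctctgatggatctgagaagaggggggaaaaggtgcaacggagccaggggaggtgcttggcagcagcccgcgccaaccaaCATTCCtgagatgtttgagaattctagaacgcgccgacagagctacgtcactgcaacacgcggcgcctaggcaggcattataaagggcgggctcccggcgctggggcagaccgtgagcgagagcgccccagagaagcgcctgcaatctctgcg
Ankrd1 (chr19:36119795-36120094, minus strand): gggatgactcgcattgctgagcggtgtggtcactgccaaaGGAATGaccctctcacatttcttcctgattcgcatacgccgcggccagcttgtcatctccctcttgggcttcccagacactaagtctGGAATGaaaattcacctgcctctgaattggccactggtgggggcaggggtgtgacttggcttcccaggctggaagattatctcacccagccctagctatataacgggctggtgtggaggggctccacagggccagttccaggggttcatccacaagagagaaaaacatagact
Amotl2 (chr9:102717554-102717853, plus strand): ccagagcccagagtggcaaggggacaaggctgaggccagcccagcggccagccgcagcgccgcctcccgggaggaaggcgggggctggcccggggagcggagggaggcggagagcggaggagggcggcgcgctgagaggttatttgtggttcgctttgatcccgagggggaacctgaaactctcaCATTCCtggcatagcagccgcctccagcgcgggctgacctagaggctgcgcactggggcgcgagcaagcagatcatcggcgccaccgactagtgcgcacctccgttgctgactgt
Ajuba (chr14:54577612-54577911, minus strand): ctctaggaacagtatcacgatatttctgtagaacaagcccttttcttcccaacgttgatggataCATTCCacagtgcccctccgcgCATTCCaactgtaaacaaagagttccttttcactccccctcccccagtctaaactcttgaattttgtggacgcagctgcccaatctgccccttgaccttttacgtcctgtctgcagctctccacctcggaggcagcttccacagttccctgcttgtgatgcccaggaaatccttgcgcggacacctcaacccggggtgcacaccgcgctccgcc
Relative to the start site of the window the matches begin at position -103 in Ccn1, at -210 and -123 in Ankrd1, at -65 in Amotl2, and at -186 and -164 in Ajuba. The Amotl2 window (chr9:102717554-102717853) lies wholly inside the gene span from chr9:102717091, so its start site is not that gene start. A match describes the letters of the window only.

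With vehicle alone, all 10 genes differed between dKO and WT MEFs, 2 of them higher and 8 lower in dKO. In this comparison 28% of all genes passed as higher and 19.2% as lower, so calls were common. How many of all genes separated here without overlap was not counted. The median difference of the 10 genes was -0.35, against -0.003 over all genes. In bulk samples such as these, fewer cells of a type and less RNA per cell cannot be told apart.

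Among the regulators, Lats2, the kinase that phosphorylates YAP, read 8.88, 8.84, 8.78 and 8.75 in dKO MEFs and 9.52, 9.56, 9.47 and 9.73 in WT MEFs (-0.76 ± 0.08, adjusted p = 9.9e-10 in limma). Every dKO array lay below every WT array. Amotl2, an angiomotin family scaffold that binds YAP and holds it in the cytoplasm, read 10.41, 10.37, 10.41 and 10.36 in dKO and 11.07, 11.17, 11.11 and 11.06 in WT (-0.72 ± 0.03, adjusted p = 2.45e-19 in limma), again without overlap. Ajuba, a LIM domain scaffold that binds LATS kinases, was also lower in dKO (-0.24 ± 0.03), as was Yap1 itself (-0.19 ± 0.03 on its brighter probe set), and neither overlapped. The dimmer Yap1 probe set, 1416487_a_at, gave -0.65 ± 0.06, and the other 5 Lats2 probe sets gave -0.83 ± 0.05 to -0.18 ± 0.11. Nuak2, an AMPK-related kinase that promotes YAP activity, ran the other way. It read 9.21, 9.22, 9.24 and 9.28 in dKO MEFs and 8.50, 8.74, 8.61 and 8.51 in WT MEFs (0.65 ± 0.05, adjusted p = 5.95e-13 in limma).

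Among the targets, Thbs1, which encodes the matrix glycoprotein thrombospondin 1, had the largest difference of the 10 genes. It read 10.44, 10.47, 10.36 and 10.37 in dKO MEFs and 11.75, 11.79, 11.72 and 11.64 in WT MEFs (-1.32 ± 0.04, adjusted p = 1.29e-23 in limma), a fold of 0.401. Ccn2, the connective tissue growth factor gene, read 12.35, 12.27, 12.24 and 12.33 in dKO and 12.79, 12.80, 12.69 and 12.74 in WT (-0.46 ± 0.04). F3, the gene of the clotting initiator tissue factor, read 8.45, 8.27, 8.27 and 8.33 in dKO and 8.75, 8.91, 8.61 and 8.89 in WT (-0.46 ± 0.08). For all 3 the dKO arrays lay below the WT arrays. Ankrd1, an ankyrin repeat gene much used as a YAP reporter, was higher in dKO, with 10.61, 10.54, 10.50 and 10.52 in dKO and 9.60, 9.76, 9.61 and 9.65 in WT (0.89 ± 0.04, adjusted p = 2.07e-18 in limma). Ccn1, which encodes the matricellular protein CYR61, gave -0.11 ± 0.04, adjusted p = 0.0144 in limma on its brightest probe set, the smallest difference among the probe sets that stand for the genes, and its arrays overlapped. Its call was lost without array 3 of dKO with vehicle (-0.10, adjusted p = 0.0578) or array 2 of WT with vehicle (-0.09, adjusted p = 0.072). Other Ccn1 probe sets differed more, -0.47 ± 0.04 for 1442340_x_at and -0.48 ± 0.04 for 1457823_at, and 1438133_a_at less, -0.04 ± 0.04. On 1457823_at no dKO array reached a WT array (10.41, 10.54, 10.45 and 10.57 in dKO and 10.93, 10.96, 11.03 and 10.96 in WT). With the mean of its 4 probe sets Ccn1 gave -0.28, adjusted p = 7.2e-09 in limma. Of the fibroblast and stellate markers, 7 of 10 were lower in dKO and 0 higher, with a list mean of 6.79 to 6.84 on dKO arrays and 8.14 to 8.25 on WT arrays, and their part in these differences was not tested.

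**Figure D1:**
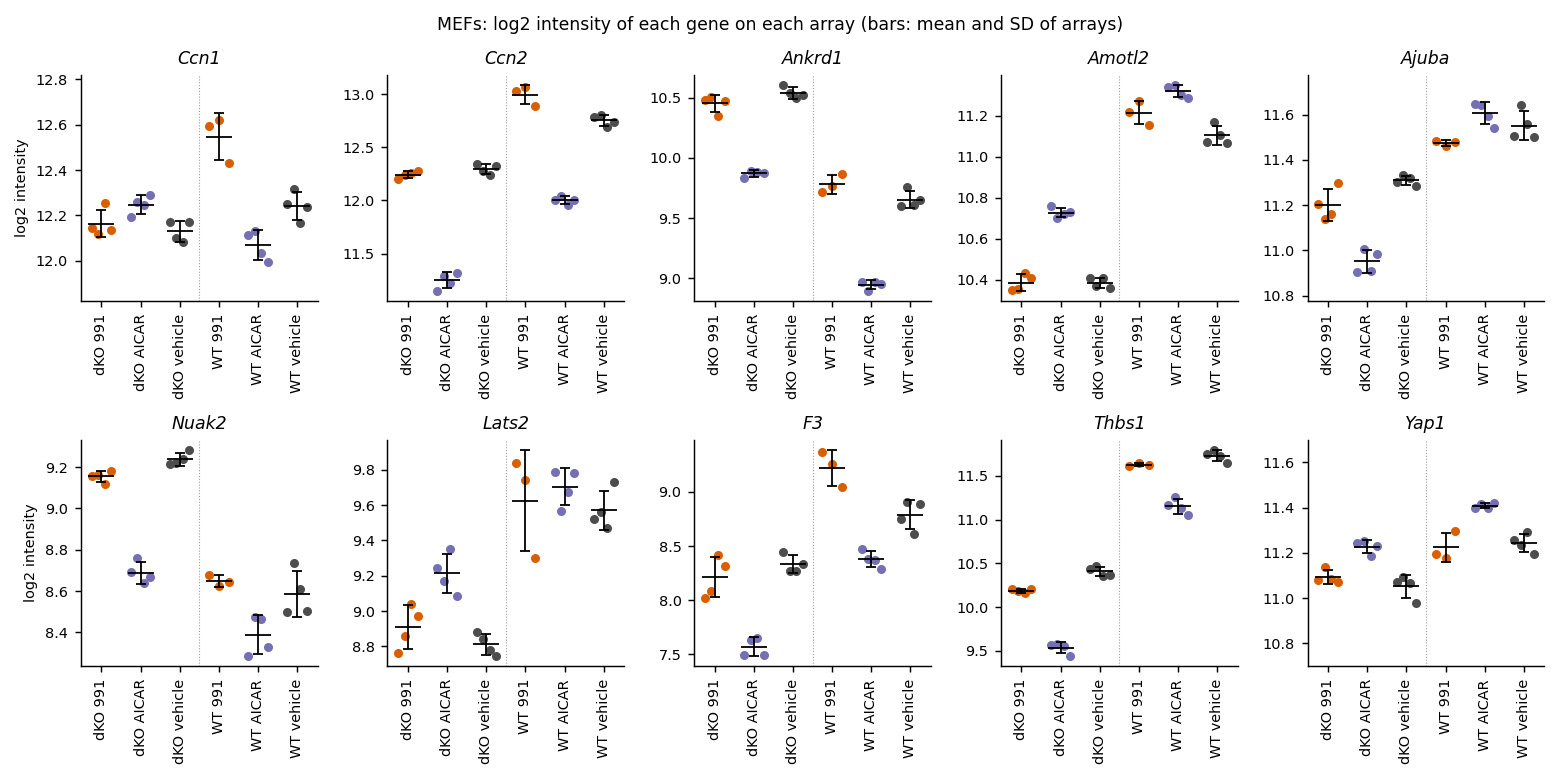
Log2 intensity of the 10 genes in MEFs (vertical axis, with its own range in each panel), where dots are arrays and bars give the mean and SD over arrays. Thbs1 lies between 9.44 and 10.47 on the dKO arrays and between 11.05 and 11.79 on the WT arrays.

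991 raised 5 of the 10 genes in WT MEFs and lowered 0. In this comparison 14% of all genes passed as higher and 5.65% as lower, and 71.3% of the called genes were higher, or 55% after quantile normalization. These shares are of 2555 higher and 1027 lower genes, against 1276 higher and 1046 lower after quantile normalization and 747 higher and 354 lower with the width of each array's distribution as a covariate. F3 read 9.37, 9.26 and 9.04 with 991 and 8.75, 8.91, 8.61 and 8.89 with vehicle (0.43 ± 0.08, adjusted p = 0.000544 in limma). Ccn1 read 12.59, 12.62 and 12.43 with 991 and 12.25, 12.32, 12.17 and 12.24 with vehicle (0.31 ± 0.04, adjusted p = 4.69e-06 in limma). Ccn2 read 13.03, 13.07 and 12.89 with 991 and 12.79, 12.80, 12.69 and 12.74 with vehicle (0.24 ± 0.04, adjusted p = 5.24e-05 in limma). For these 3 targets every 991 array lay above every vehicle array, and the share of all genes separated in this way was not counted.

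The other rises with 991 in WT MEFs were smaller and their arrays overlapped, 0.13 ± 0.04 for Ankrd1 and 0.11 ± 0.03 for Amotl2. The Ankrd1 call was lost without array 3 or 4 of WT with 991 (0.14 and 0.09) and without array 1, 3 or 4 of WT with vehicle (0.11, 0.11 and 0.13), and its dimmer probe set gave -0.03 ± 0.05. The Amotl2 call was lost without array 2 or 3 of WT with 991 (0.11 and 0.08) and without array 1 or 4 of WT with vehicle (0.10 and 0.10). The 5 genes not called were Ajuba (-0.08 ± 0.04), Nuak2 (0.06 ± 0.05), Lats2 (0.06 ± 0.09), Thbs1 (-0.10 ± 0.04) and Yap1 (-0.02 ± 0.03). Lats2 passed without array 4 of WT with 991 (0.22, adjusted p = 0.037 in limma), and Thbs1 without array 4 of WT with vehicle (-0.13, adjusted p = 0.0344 in limma). The value of Lats2 depends on the probe set. Its other 5 probe sets gave 0.17 ± 0.05 (1419678_at), 0.20 ± 0.12 (1419679_at), 0.20 ± 0.08 (1426156_at), 0.24 ± 0.05 (1425420_s_at) and 0.26 ± 0.06 (1437101_at), and with the mean of all 6 Lats2 was called (0.19, adjusted p = 0.00535 in limma). The dimmer Yap1 probe set gave -0.17 ± 0.06. With array width as a covariate F3 (0.20, adjusted p = 0.111), Ankrd1 (0.16, adjusted p = 0.0643) and Amotl2 (0.06, adjusted p = 0.409) were not called in limma, and Ccn1 (0.24) and Ccn2 (0.21) were.

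In dKO MEFs 991 changed 1 of the 10 genes, where 1.88% of all genes passed as higher and 1.58% as lower, and 54.4% of those called were higher, or 41.6% after quantile normalization. With array width as a covariate 696 higher and 514 lower genes passed, against 342 higher and 287 lower without it. Thbs1 read 10.21, 10.18, 10.16 and 10.20 with 991 and 10.44, 10.47, 10.36 and 10.37 with vehicle (-0.22 ± 0.04, adjusted p = 0.000791 in limma), and the groups did not overlap. The targets that rose in WT gave -0.12 ± 0.08 (F3), 0.03 ± 0.04 (Ccn1) and -0.05 ± 0.04 (Ccn2) in dKO, none of them called. Ajuba gave -0.11 ± 0.03, adjusted p = 0.0694 in limma and was called without array 4 of dKO with 991 (-0.14, adjusted p = 0.0178) and with array width as a covariate (-0.11, adjusted p = 0.0413). Away from its brightest probe set Ccn1 was higher with 991 in dKO, by 0.19 ± 0.04 on 1442340_x_at and 0.16 ± 0.04 on 1457823_at (adjusted p = 0.00263 and 0.0313 in the limma fit of single probe sets). With the mean of both its probe sets Ankrd1 was called (-0.12, adjusted p = 0.0218 in limma).

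The difference itself, the 991 effect in dKO minus the 991 effect in WT, was called for 4 genes, all lower, where 0.912% of all genes passed as higher and 4.37% as lower (17.3% of those called were higher, or 31.2% after quantile normalization). They were the targets F3 (-0.55 ± 0.11, adjusted p = 0.00314), Ccn2 (-0.29 ± 0.05, adjusted p = 0.000756), Ccn1 (-0.27 ± 0.06, adjusted p = 0.00329) and Ankrd1 (-0.22 ± 0.06, adjusted p = 0.0278), in limma. With array width as a covariate, which gave 93 higher and 289 lower of all genes instead of 166 higher and 795 lower, Ccn2 (-0.27, adjusted p = 0.0129) and Ankrd1 (-0.25, adjusted p = 0.0389) were still called in limma. F3 (-0.30, adjusted p = 0.0814) and Ccn1 (-0.20, adjusted p = 0.0721) were not. Ccn1 was not called with the mean of its probe sets either (-0.14, adjusted p = 0.0568 in limma), where 1442340_x_at gave -0.01 ± 0.05 and 1457823_at gave -0.06 ± 0.06. The Ankrd1 call was lost without array 3 or 4 of WT with 991, array 1 or 3 of WT with vehicle, or array 1 of dKO with vehicle, with values of -0.23 to -0.18. Amotl2 (-0.11 ± 0.04, adjusted p = 0.134 in limma) was called without array 2 of WT with vehicle (-0.13, adjusted p = 0.0488).

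AICAR changed all 10 genes in dKO MEFs, 4 higher and 6 lower, and 8 genes in WT MEFs, 2 higher and 6 lower. In dKO 20.4% of all genes passed as higher and 19.8% as lower, and in WT 19.6% of all genes passed as higher and 15.5% as lower. The median of the 10 genes was -0.45 in dKO and -0.19 in WT, against -0.02 and -0.01 over all genes.

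Among the probe sets that stand for the genes, that of Ccn2 showed the largest fall in both genotypes. It read 11.15, 11.29, 11.23 and 11.32 with AICAR and 12.35, 12.27, 12.24 and 12.33 with vehicle in dKO (-1.05 ± 0.04, adjusted p = 6.73e-21 in limma, fold 0.483), and 12.01, 12.04, 11.96 and 12.01 with AICAR and 12.79, 12.80, 12.69 and 12.74 with vehicle in WT (-0.75 ± 0.04, adjusted p = 4.83e-17 in limma). Ankrd1 read 9.83, 9.89, 9.88 and 9.88 with AICAR in dKO (-0.67 ± 0.04) and 8.97, 8.90, 8.97 and 8.95 in WT (-0.71 ± 0.04). Thbs1 read 9.57, 9.57, 9.56 and 9.44 with AICAR in dKO (-0.87 ± 0.04) and 11.17, 11.26, 11.13 and 11.05 in WT (-0.58 ± 0.04). These targets lay below vehicle on every AICAR array of both genotypes. F3 did as well, with 7.49, 7.63, 7.65 and 7.50 with AICAR in dKO (-0.76 ± 0.08) and 8.48, 8.38, 8.37 and 8.29 in WT (-0.41 ± 0.08). How many of all genes lay apart like this was not counted.

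Ccn1 did not follow the other targets on its brightest probe set. It read 12.19, 12.26, 12.25 and 12.29 with AICAR and 12.17, 12.10, 12.08 and 12.17 with vehicle in dKO (0.12 ± 0.04, adjusted p = 0.0137 in limma), and 12.11, 12.13, 12.03 and 11.99 with AICAR and 12.25, 12.32, 12.17 and 12.24 with vehicle in WT (-0.17 ± 0.04, adjusted p = 0.000447 in limma). The dKO call was lost after quantile normalization (0.09, adjusted p = 0.0551), with array width as a covariate (0.09, adjusted p = 0.0652) and without array 3 of dKO with vehicle (0.10, adjusted p = 0.0549).

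Of the regulators, Amotl2 rose with AICAR in both genotypes, to 10.76, 10.70, 10.72 and 10.73 in dKO (0.34 ± 0.03) and to 11.34, 11.35, 11.30 and 11.29 in WT (0.22 ± 0.03). Nuak2 fell by 0.55 ± 0.05 in dKO and fell by 0.20 ± 0.05 in WT. Ajuba read 10.90, 11.01, 10.91 and 10.98 with AICAR and 11.30, 11.33, 11.32 and 11.29 with vehicle in dKO (-0.36 ± 0.03, adjusted p = 2.65e-10 in limma), a fall without overlap, and gave 0.05 ± 0.03, adjusted p = 0.243 in WT. Yap1 was higher by 0.18 ± 0.03 in dKO and 0.16 ± 0.03 in WT on its brighter probe set. Lats2 rose by 0.40 ± 0.08 in dKO and gave 0.13 ± 0.08, adjusted p = 0.211 in WT on its brightest probe set.

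The AICAR effect in dKO minus that in WT was called for 6 of the 10 genes, 1 higher and 5 lower, where 4.18% of all genes passed as higher and 7.93% as lower. Those lower were Ajuba (-0.41 ± 0.05, adjusted p = 2.95e-07), Nuak2 (-0.35 ± 0.07, adjusted p = 0.000686), F3 (-0.35 ± 0.11, adjusted p = 0.0318), Thbs1 (-0.30 ± 0.05, adjusted p = 0.00024) and Ccn2 (-0.30 ± 0.05, adjusted p = 0.000107), in limma. For F3, Nuak2, Thbs1 and Ccn2 the fall with AICAR was larger in dKO than in WT. Ccn1 was the higher one (0.29 ± 0.05, adjusted p = 0.000311 in limma), and Ankrd1 gave 0.04 ± 0.06, adjusted p = 0.796. The F3 call was lost without any of 8 single arrays (1 or 4 of dKO with AICAR, 1 of dKO with vehicle, 1, 2 or 3 of WT with AICAR, 1 or 3 of WT with vehicle), with values of -0.29 to -0.35. Amotl2 (0.13 ± 0.04, adjusted p = 0.0504 in limma) was called without array 1 or 4 of WT with vehicle or array 2 of WT with AICAR, at 0.14 each, and with array width as a covariate (0.13, adjusted p = 0.0147). So was Lats2 with that covariate (0.28, adjusted p = 0.0359) and with the mean of its probe sets (0.19, adjusted p = 0.0318), as was Ankrd1 with the mean of its probe sets (0.15, adjusted p = 0.0209).

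The 6 probe sets of Lats2 differed in size of response to AICAR. Probe set 1425420_s_at read 10.04, 10.06, 10.05 and 10.00 with AICAR and 6.66, 6.78, 6.64 and 6.66 with vehicle in dKO MEFs (3.35 ± 0.05, 10.2-fold). In WT MEFs it read 10.21, 10.39, 10.30 and 10.32 with AICAR and 7.46, 7.54, 7.56 and 7.51 with vehicle (2.79 ± 0.05, 6.89-fold). Probe set 1426156_at rose by 3.50 ± 0.07 in dKO and 3.28 ± 0.07 in WT. No AICAR array of either probe set came near the vehicle arrays. In the limma fit of single probe sets, where 20.1% of all probe sets were called higher and 17.7% lower in dKO, and 18% higher and 13.8% lower in WT, these 4 rises had adjusted p-values of 1.94e-29 to 3.67e-24. The other 4 Lats2 probe sets gave 0.26 to 0.50 in dKO and 0.13 to 0.41 in WT. With 991 the strongly responding pair gave 0.03 ± 0.05 and -0.08 ± 0.07 in dKO MEFs, and 0.24 ± 0.05 and 0.20 ± 0.08 in WT MEFs. In hepatocytes AICAR gave 0.36 ± 0.08 and 0.25 ± 0.10 in dKO, and 0.34 ± 0.08 and 0.06 ± 0.10 in WT. With the mean of all 6 probe sets, Lats2 was called with AICAR in WT MEFs (1.22, adjusted p = 1.54e-17 in limma). The position of each probe set on the transcripts was not given in the sources used here.

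Ccn1 and Yap1 had probe sets that disagreed in direction. Ccn1 probe set 1457823_at read 9.80, 9.91, 9.90 and 9.92 with AICAR and 10.41, 10.54, 10.45 and 10.57 with vehicle in dKO MEFs (-0.61 ± 0.04), and 9.88, 9.74, 9.83 and 9.84 with AICAR and 10.93, 10.96, 11.03 and 10.96 with vehicle in WT MEFs (-1.15 ± 0.04). Probe set 1442340_x_at gave -0.60 ± 0.04 in dKO and -1.12 ± 0.04 in WT, whereas 1438133_a_at gave 0.09 ± 0.04 and -0.19 ± 0.04. All 4 Ccn1 probe sets had a higher AICAR effect in dKO than in WT MEFs. In hepatocytes 1457823_at gave -1.43 ± 0.18 in dKO and -0.65 ± 0.18 in WT. The dimmer Yap1 probe set, 1416487_a_at, gave -0.21 ± 0.06 in dKO and -0.30 ± 0.06 in WT MEFs. With the mean of all probe sets, the AICAR difference was -0.25, adjusted p = 6.43e-08 for Ccn1 in dKO MEFs, and for Yap1 it was -0.02 in dKO and -0.07 in WT MEFs. In WT hepatocytes the brightest Ccn1 probe set gave 0.05 ± 0.11. The direction of Ccn1 in dKO MEFs and in WT hepatocytes, and of Yap1 in MEFs of both genotypes, therefore depends on the probe set read.

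**Figure D2:**
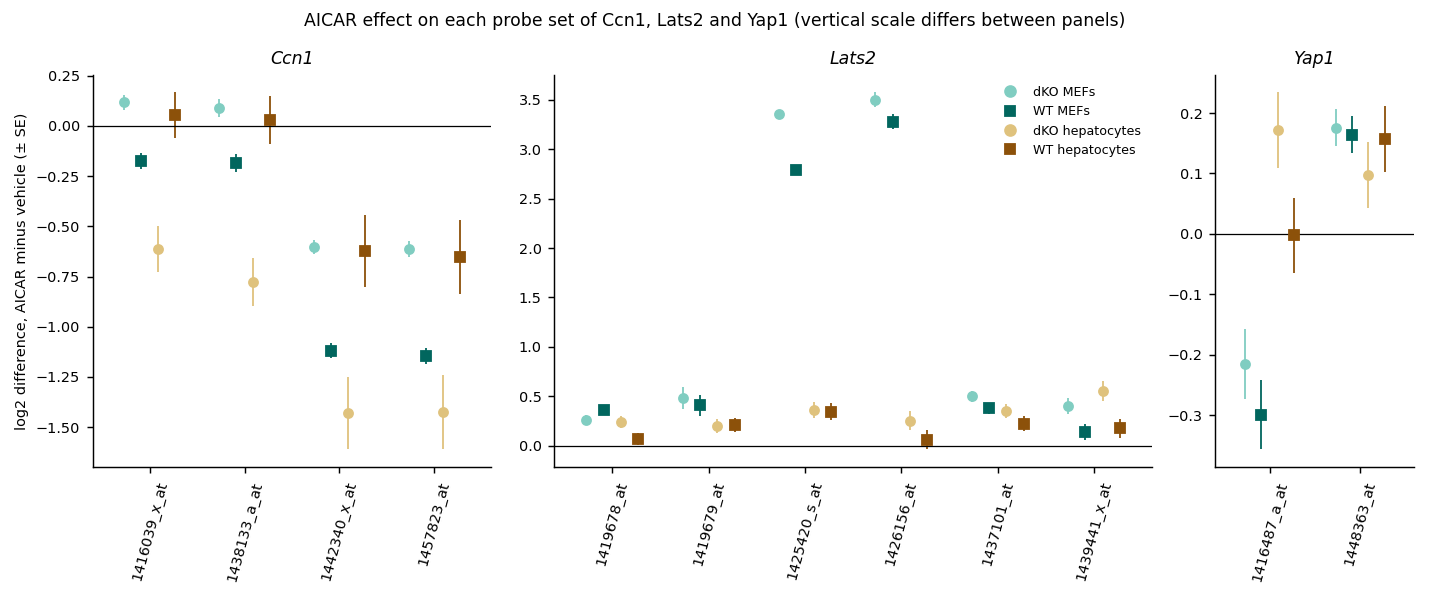
AICAR minus vehicle (log2 difference ± SE, vertical axis, with its own range in each panel) for each probe set of Ccn1, Lats2 and Yap1 in both cell types, dKO and WT side by side. Lats2 probe sets 1425420_s_at and 1426156_at lie between 2.79 and 3.50 in MEFs, and the other 4 at 0.50 or below.

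AICAR and 991, each at its own dose, gave different levels of 9 of the 10 genes in WT MEFs, 3 higher and 6 lower with AICAR, where 11.3% of all genes passed as higher and 16.6% as lower. The lower ones were the targets Ccn2 (-0.99 ± 0.04), F3 (-0.84 ± 0.08), Ankrd1 (-0.84 ± 0.04), Ccn1 (-0.48 ± 0.04) and Thbs1 (-0.47 ± 0.04), and the kinase gene Nuak2 (-0.26 ± 0.05). Yap1 (0.18 ± 0.03), Ajuba (0.13 ± 0.04) and Amotl2 (0.10 ± 0.03) were higher, and the Amotl2 call was lost without array 4 of WT with 991 (0.07, adjusted p = 0.125). Lats2 gave 0.08 ± 0.09 on its brightest probe set and 2.55 ± 0.05 on 1425420_s_at, and was called with the mean of its probe sets (1.04, adjusted p = 1.67e-15). Yap1 was not called with the mean of its probe sets (0.03, adjusted p = 0.66), the dimmer giving -0.13 ± 0.06. Ccn1 gave -1.32 ± 0.04 on 1442340_x_at and -1.36 ± 0.04 on 1457823_at. The doses of the compounds differ, and each was given at a single dose.

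The order of the 6 MEF groups was read on the probe sets that stand for the genes, and overlaps were not counted over all genes. Thbs1 separated every group from its neighbour in the order of means, with WT with vehicle highest and dKO with AICAR lowest. Ccn2 had 1 overlapping pair of neighbours of 5, dKO with vehicle and dKO with 991, and ran from WT with 991 at the top to dKO with AICAR at the bottom. Nuak2 and Ankrd1 shared an order, every dKO group above every WT group in mean and AICAR lowest within a genotype, with 2 and 3 overlapping pairs. Amotl2 and Lats2 shared another, WT above dKO and AICAR highest within a genotype, also with 2 and 3 overlapping pairs. For Lats2 this depends on the probe set. On 1425420_s_at dKO with AICAR (10.04) lay above WT with 991 (7.76) and WT with vehicle (7.52), as it did on 1426156_at (9.64 against 7.01 and 6.81). For Ccn1 4 of 5 pairs overlapped on its brightest probe set, and WT with 991 alone stood clear. On 1442340_x_at the AICAR arrays lay below all others, at 9.85 to 9.97 in dKO and 9.82 to 9.89 in WT. The next group there, dKO with vehicle, read 10.49 to 10.52.

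In hepatocytes with vehicle, limma called 0 of the 10 genes between dKO and WT, and 0% of all genes in each direction. At an unadjusted p under 0.05 there were 3 of the 10 genes and 846 of all genes. Ccn2 read 12.51 and 12.46 in the dKO preparations and 11.96 and 12.04 in the WT preparations (0.48 ± 0.06, adjusted p = 0.613 in limma). Amotl2 read 9.93 and 10.17 in dKO and 9.77 and 9.52 in WT (0.40 ± 0.13). Ajuba read 11.93 and 11.98 in dKO and 11.80 and 11.75 in WT (0.18 ± 0.06). Nuak2, which did not reach an unadjusted p of 0.05, read 8.14 and 7.93 in dKO and 7.66 and 7.88 in WT (0.26 ± 0.12). In each of these 4 genes and in Yap1 (0.16 ± 0.08) both dKO preparations lay above both WT preparations. The share of all genes separated in this way was not counted, and so few preparations can separate by chance. This separation alone is therefore not read as a genotype difference. Ankrd1 read 8.61 and 7.57 in dKO and 7.05 and 8.02 in WT (0.55 ± 0.44), with the preparations far apart. They ran in opposite order in dKO and WT, as did those of Ccn2, Amotl2, Ajuba and Nuak2. Since the preparations deviated in mirror image over genes, this order is not read as a trait of Ankrd1. The 7 macrophage markers had a list mean of 8.07 to 8.30 in dKO and 8.56 to 8.96 in WT preparations, 0 of them called, and their part in these values was not tested.

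991 lowered 4 of the 10 genes in WT hepatocytes and raised 0, where 3.72% of all genes passed as higher and 2.36% as lower. All 4 are regulators of the pathway, and Lats2, Amotl2 and Nuak2 are also among the genes that YAP and TAZ raise. Amotl2 read 8.85 and 8.74 with 991 and 9.77 and 9.52 with vehicle (-0.85 ± 0.05, adjusted p = 1.52e-05 in limma, fold 0.554), a change of -0.92 and -0.79 in preparations 1 and 2. Ajuba read 11.06 and 11.01 with 991 and 11.80 and 11.75 with vehicle (-0.74 ± 0.04, adjusted p = 5.66e-06 in limma, fold 0.599). No preparation of these genes overlapped between treatments. Nuak2 read 7.21 and 7.40 with 991 and 7.66 and 7.88 with vehicle (-0.46 ± 0.06, adjusted p = 0.00185 in limma). Lats2 read 7.33 and 7.17 with 991 and 7.51 and 7.75 with vehicle (-0.38 ± 0.10, adjusted p = 0.0414 in limma). Without WT preparation 2 the calls of Lats2 (-0.19, adjusted p = 0.512) and Nuak2 (-0.45, adjusted p = 0.0959) were lost, and that of Lats2 also with the mean of all probe sets (-0.14, adjusted p = 0.211).

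The targets gave 0.01 ± 0.13 (F3), -0.17 ± 0.11 (Ccn1), -0.11 ± 0.08 (Ccn2), -0.02 ± 0.10 (Ankrd1) and 0.12 ± 0.11 (Thbs1) with 991 in WT hepatocytes, none of them called, and Yap1 gave -0.08 ± 0.05. The doses differ from those in MEFs, and the cell types were not tested against each other.

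In dKO hepatocytes limma called 0 of the 10 genes with 991, where 0% of all genes passed as higher and 0.0055% as lower. An unadjusted p under 0.05 was reached by 5 of the 10 genes and by 819 of all genes. Amotl2 read 9.69 and 9.86 with 991 and 9.93 and 10.17 with vehicle (-0.28 ± 0.05, adjusted p = 0.206 in limma). Ajuba read 11.78 and 11.82 with 991 and 11.93 and 11.98 with vehicle (-0.16 ± 0.04, adjusted p = 0.498 in limma). For these 2 genes the change was -0.25 and -0.31, and -0.15 and -0.16, in preparations 1 and 2. The other 3 were Ccn2 (-0.29 ± 0.08, with -0.37 and -0.21 in the preparations), Nuak2 (-0.26 ± 0.06) and Lats2 (-0.25 ± 0.10). In WT, Ccn2 gave the smaller -0.11 ± 0.08. The 991 effect in dKO minus that in WT was called for Ajuba (0.58 ± 0.06, adjusted p = 0.00147) and Amotl2 (0.57 ± 0.08, adjusted p = 0.0106) in limma, both higher, where 0.0824% of all genes passed as higher and 0.33% as lower. The Amotl2 call was lost without any 1 of the 4 preparations (0.51 to 0.64). For Ccn2 (-0.18 ± 0.11, adjusted p = 0.779 in limma), Nuak2 (0.20 ± 0.09) and Lats2 (0.13 ± 0.14) the difference was not called.

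**Figure D3:**
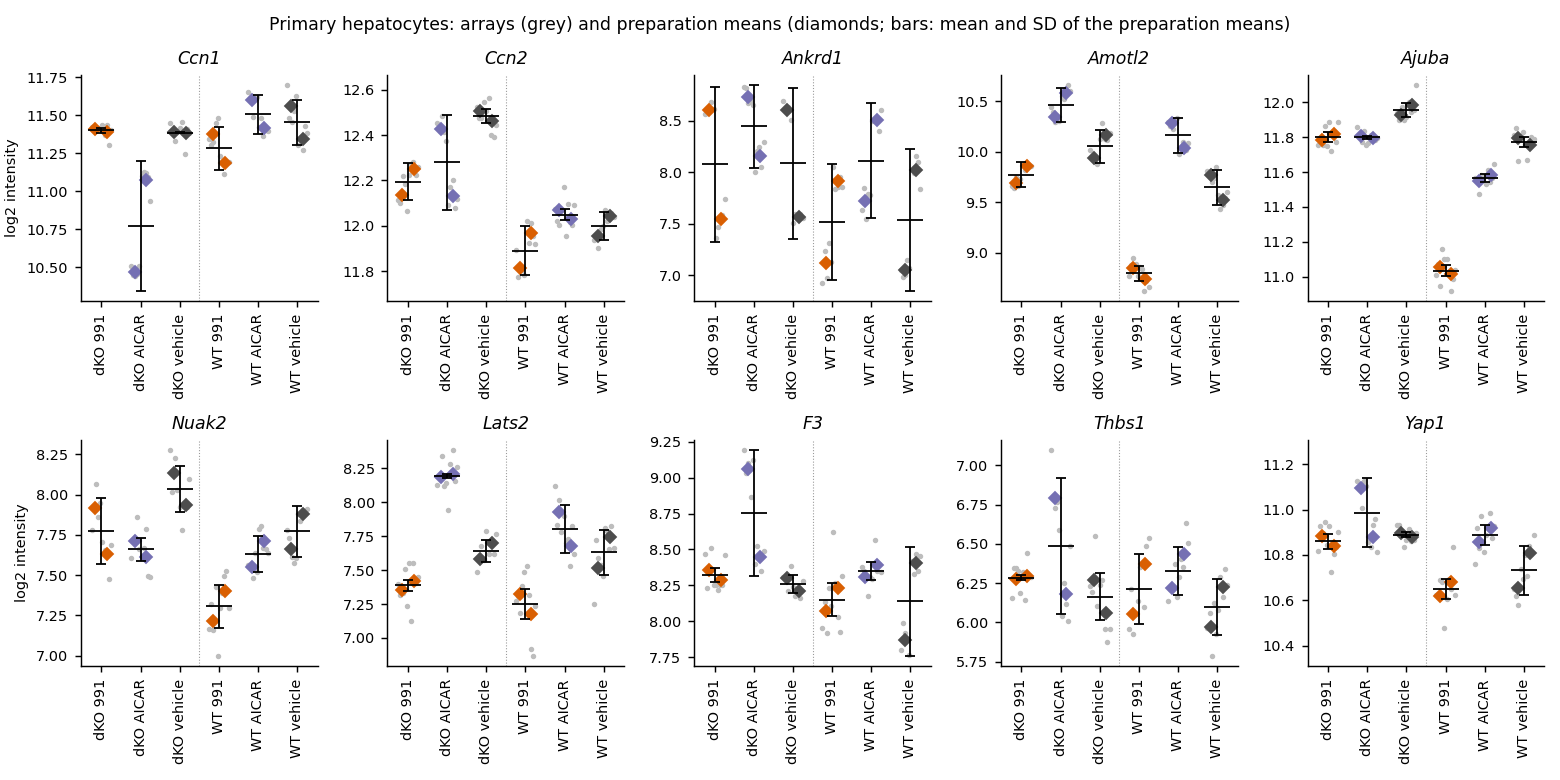
Log2 intensity of the 10 genes in primary hepatocytes (vertical axis, with its own range in each panel), with dots for arrays, diamonds for preparation means and bars for the mean and SD of the 2 preparation means. Ajuba and Amotl2 are lowest in WT with 991, at preparation means of 11.06 and 11.01 and of 8.85 and 8.74.

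AICAR changed 7 of the 10 genes in dKO hepatocytes, 4 higher and 3 lower, and 3 in WT hepatocytes, 2 higher and 1 lower. In dKO 10.5% of all genes passed as higher and 7.31% as lower, and in WT 8.51% of all genes passed as higher and 7.99% as lower. Amotl2 read 10.34 and 10.58 with AICAR and 9.93 and 10.17 with vehicle in dKO (0.41 ± 0.05, adjusted p = 0.000487 in limma), and 10.28 and 10.04 with AICAR and 9.77 and 9.52 with vehicle in WT (0.52 ± 0.05, adjusted p = 0.000167 in limma). It was thus called higher with AICAR in both genotypes of both cell types. Ajuba fell by 0.16 ± 0.04 in dKO and fell by 0.21 ± 0.04 in WT. The Ajuba call was lost without either dKO preparation (-0.19 and -0.12) and without WT preparation 1 (-0.17).

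Ankrd1 rose with AICAR in hepatocytes, whereas it fell in MEFs. It read 8.73 and 8.16 with AICAR and 8.61 and 7.57 with vehicle in dKO (0.36 ± 0.10, adjusted p = 0.036 in limma), and 7.72 and 8.51 with AICAR and 7.05 and 8.02 with vehicle in WT (0.58 ± 0.10, adjusted p = 0.00383 in limma). The groups overlapped, but within preparations 1 and 2 the change was 0.12 and 0.59 in dKO and 0.67 and 0.49 in WT. The calls were lost without dKO preparation 2 (0.12, adjusted p = 0.512) and without WT preparation 1 (0.49, adjusted p = 0.112).

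The other changes with AICAR were called in dKO hepatocytes. Lats2 read 8.18 and 8.21 with AICAR and 7.58 and 7.70 with vehicle (0.55 ± 0.10, adjusted p = 0.00264 in limma). F3 read 9.06 and 8.44 with AICAR and 8.30 and 8.21 with vehicle (0.49 ± 0.13, adjusted p = 0.0217 in limma). Both rose without overlap, though F3 by 0.76 and 0.23 in preparations 1 and 2. Ccn1 read 10.47 and 11.08 with AICAR and 11.39 and 11.38 with vehicle (-0.61 ± 0.11, adjusted p = 0.00358 in limma). Nuak2 read 7.71 and 7.61 with AICAR and 8.14 and 7.93 with vehicle (-0.37 ± 0.06, adjusted p = 0.00248 in limma). Both of these fell, Ccn1 by unequal amounts in the 2 preparations (-0.92 and -0.31). Without dKO preparation 1 the calls of F3 (0.23), Lats2 (0.51) and Nuak2 (-0.32) were lost and Ccn2 was called (-0.33, adjusted p = 0.0163), and without dKO preparation 2 Thbs1 was called (0.52, adjusted p = 0.00804), as it was with the mean of its probe sets (0.29, adjusted p = 0.0289). In WT these genes gave 0.18 ± 0.10 (Lats2), 0.21 ± 0.13 (F3), 0.05 ± 0.11 (Ccn1) and -0.14 ± 0.06 (Nuak2), none called, although Lats2 was called without WT preparation 2 (0.42, adjusted p = 0.0227). Away from its brightest probe set, Ccn1 gave -0.62 ± 0.18 on 1442340_x_at and -0.65 ± 0.18 on 1457823_at in WT, and 0.03 ± 0.12 on 1438133_a_at. Not called in either genotype with all preparations were Ccn2 (-0.20 ± 0.08 in dKO and 0.05 ± 0.08 in WT), Thbs1 (0.32 ± 0.11 and 0.23 ± 0.11) and Yap1 (0.10 ± 0.05 and 0.16 ± 0.05). Thbs1 was dim in hepatocytes, with group means of 6.10 to 6.49 on its brighter probe set, at percentile 42.2 of all genes.

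The AICAR effect in dKO minus that in WT was called by limma for 0 of the 10 genes, where 0.154% of all genes passed as higher and 0.154% as lower. An unadjusted p under 0.05 was reached by 4 of the 10 genes and by 1592 of all genes. The largest was that of Ccn1 (-0.66 ± 0.16, adjusted p = 0.211), which was called without dKO preparation 2 (-0.97, adjusted p = 0.000101). The others were Lats2 (0.38 ± 0.14), Nuak2 (-0.23 ± 0.09) and Ccn2 (-0.25 ± 0.11). Cell type markers moved with AICAR on the same arrays, with 4 of 7 endothelial markers higher in dKO and 3 of 7 in WT, 4 and 1 of 7 macrophage markers, and 4 and 3 of 7 hepatocyte markers. Of 10 fibroblast and stellate markers 1 was higher in each genotype. Of 5 epithelial markers 0 were higher, and 1 was lower in dKO and 2 in WT. For AICAR against vehicle 10.5% of all genes passed as higher and 7.31% as lower in dKO, and 8.51% and 7.99% in WT. The endothelial list averaged 6.56 to 6.67 with AICAR and 6.23 to 6.44 with vehicle in dKO preparations, and 6.45 to 6.61 with AICAR and 6.18 to 6.34 with vehicle in WT preparations. Their part in the changes of the 10 genes was not tested.

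AICAR and 991, each at its own dose, gave different levels of 6 of the 10 genes in WT hepatocytes, all higher with AICAR, where 9.72% of all genes passed as higher and 9.05% as lower. Amotl2 read 10.28 and 10.04 with AICAR and 8.85 and 8.74 with 991 (1.37 ± 0.05, adjusted p = 9.92e-08 in limma, fold 2.58), the largest of these differences. Ankrd1 (0.60 ± 0.10), Lats2 (0.55 ± 0.10), Ajuba (0.53 ± 0.04), Nuak2 (0.33 ± 0.06) and Yap1 (0.24 ± 0.05) were the others. Ccn1, not called, gave 0.22 ± 0.11 on its brightest probe set, but -0.44 ± 0.18 on 1442340_x_at and -0.45 ± 0.18 on 1457823_at. Without WT preparation 1 or without WT preparation 2 the calls of Ankrd1 (0.60 and 0.60), Nuak2 (0.31 and 0.34) and Yap1 (0.24 and 0.24) were lost.

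**Figure D4:**
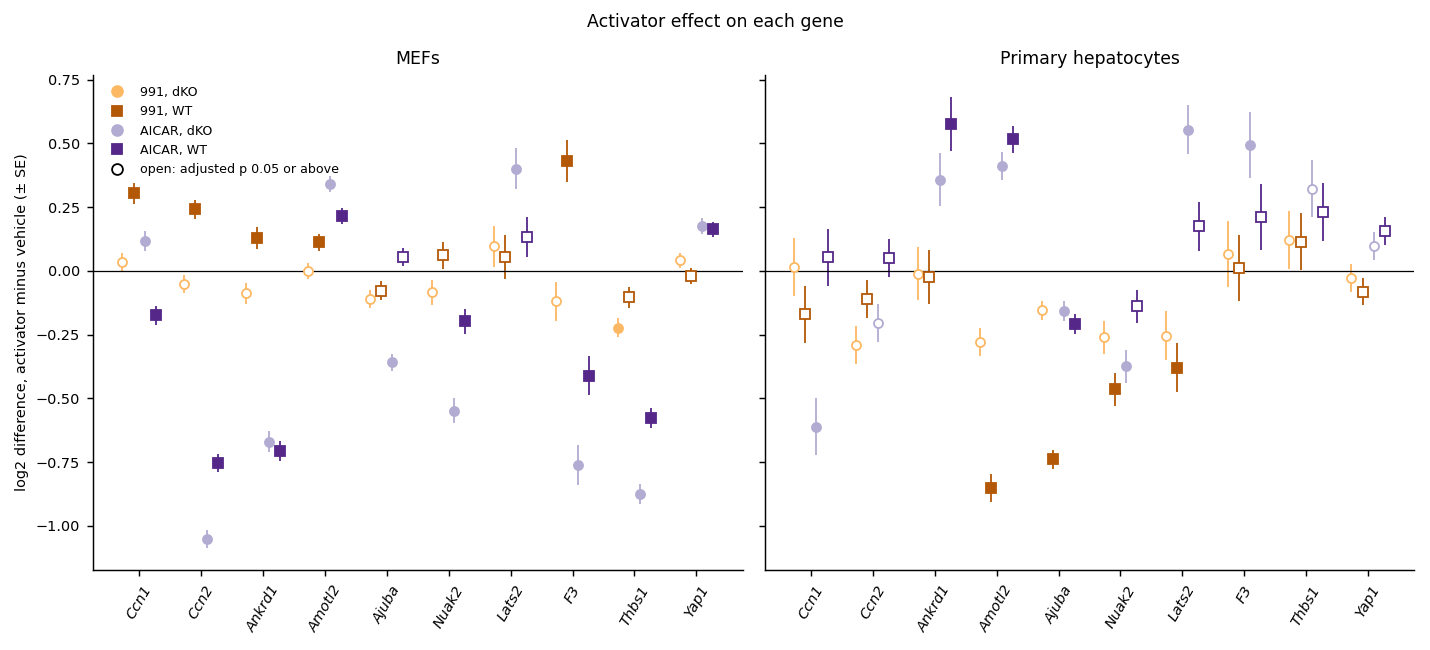
Activator minus vehicle (log2 difference ± SE, vertical axis) for each gene in MEFs and in hepatocytes, dKO and WT side by side, with open symbols where the gene was not called. Ccn2 reaches -1.05 with AICAR in dKO MEFs, and Amotl2 lies at -0.85 with 991 and 0.52 with AICAR in WT hepatocytes.

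In the order of hepatocyte group means, WT with 991 was the lowest group of Amotl2, Ajuba, Nuak2 and Lats2 and stood clear of its neighbour. For Lats2 that neighbour was dKO with 991, at 7.36 and 7.42 against 7.33 and 7.17, a small gap and one across genotypes. The share of all genes that separate or overlap in this way was not counted, and so few preparations can separate by chance. All 5 pairs of neighbours overlapped for Ankrd1 and Thbs1, 4 for F3 and Yap1, 3 for Ccn2 and Nuak2, and 2 for Ccn1, Amotl2, Ajuba and Lats2.

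Other genes of the pathway were read from lists. Of 21 measured Hippo components, 8 rose and 5 fell with AICAR in dKO MEFs and 8 rose and 5 fell in WT MEFs. Over all genes 20.4% and 19.8% passed as higher and lower in dKO and 19.6% and 15.5% in WT. Mob1b, which encodes a LATS coactivator, rose by 0.58 ± 0.07 in dKO and 0.33 ± 0.07 in WT. With 991 the list had 2 higher and 0 lower in WT MEFs, where 14% and 5.65% of all genes passed, the higher ones being the angiomotin gene Amotl1 (0.14 ± 0.04) and the Ajuba family gene Wtip (0.12 ± 0.04). In WT hepatocytes Ptpn14, a phosphatase that binds YAP, rose with 991 (0.31 ± 0.06) and fell with AICAR (-0.34 ± 0.06), while Amotl1 rose with AICAR (0.37 ± 0.06). AICAR set against 991 had 10 higher and 1 lower of 21 there, where 9.72% and 9.05% of all genes passed.

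Of 7 YAP partner genes, 1 rose and 2 fell with AICAR in dKO MEFs and 1 rose and 3 fell in WT MEFs. Over all genes 20.4% passed as higher and 19.8% as lower in dKO, and 19.6% and 15.5% in WT. The TEAD factor gene Tead4, of middling level in MEFs (mean 6.73, percentile 46.8 of all genes), fell with AICAR in dKO MEFs (-0.31 ± 0.07) and in WT MEFs (-0.25 ± 0.07). With 991 Tead4 gave -0.26 ± 0.07 in dKO and 0.27 ± 0.08 in WT MEFs, a difference called at -0.53 ± 0.10. In that list 991 had 0 higher and 2 lower in dKO MEFs, where 1.88% and 1.58% of all genes passed. In WT MEFs it had 1 higher and 2 lower, where 14% and 5.65% passed. Wwtr1, which encodes TAZ, was higher with AICAR in dKO hepatocytes (0.27 ± 0.07) and in WT hepatocytes (0.23 ± 0.07). Of 18 other YAP and TAZ targets, 5 rose and 7 fell with AICAR in dKO MEFs and 2 rose and 5 fell in WT MEFs, beside the same 20.4% and 19.8% of all genes in dKO and 19.6% and 15.5% in WT. Edn1, the endothelin gene, fell in dKO (-0.75 ± 0.06) and in WT (-0.82 ± 0.06). Gadd45a, a growth arrest gene, fell with AICAR in dKO (-0.64 ± 0.08) and WT MEFs (-0.55 ± 0.08) and rose with 991 in WT MEFs (0.63 ± 0.09). The 991 effect on it was lower in dKO than in WT (-0.59 ± 0.12).

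Targets of serum response factor and immediate early genes, lists that overlap in biology with YAP targets, were read beside them. Of 16 serum response factor targets, 2 rose and 11 fell with AICAR in dKO MEFs and 0 rose and 9 fell in WT MEFs, including the LIM gene Fhl2 (-0.68 ± 0.04 in dKO and -0.44 ± 0.04 in WT). The shares of all genes, higher and lower, were 20.4% and 19.8% in dKO and 19.6% and 15.5% in WT, for this list and the next. Of 12 immediate early genes, 1 rose and 8 fell in dKO MEFs and 1 rose and 8 fell in WT MEFs, including Fosl1 (-0.99 ± 0.03 in dKO and -0.65 ± 0.03 in WT). In hepatocytes that list had 5 higher and 2 lower in dKO and 5 higher and 2 lower in WT with AICAR, where 10.5% and 7.31% of all genes passed in dKO and 8.51% and 7.99% in WT. Egr1 rose by 2.55 ± 0.21 in dKO and 2.91 ± 0.21 in WT. The part of these lists' regulators in the values of the 10 genes was not tested.

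Across the 23 MEF arrays the genes whose pattern was most like that of Ccn2, by Pearson correlation among 8928 genes, were Ankrd50 (0.987), Bid (0.987), Klf3 (0.984) and Ipmk (0.982), and for Ccn1 they were Rbm33 (0.858), Pak3 (0.838), Hmox1 (0.835) and Slf1 (0.811). Across the 59 hepatocyte arrays, among 8914 genes, they were Fam107b (0.88), Nebl (0.817), Otud1 (0.814) and Ppl (0.807) for Ccn2 and Trib1 (0.855), Aox1 (0.843), Sema4g (0.836) and Fbxw9 (0.813) for Ccn1. The arrays share cultures and treatments, so these values are a description.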

How the data were processed

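RNA was measured on Affymetrix arrays in the MEF and hepatocyte groups described above. The deposited table holds a log2 intensity for each probe set, which the authors made with RMA and Partek, per the submitters' processing notes, whose versions are not given in the sources used here. Per the labels, 1 array of each cell type was left out as an outlier by the authors. Probe sets were given gene symbols from the platform annotation, and 34945 with a single symbol gave 18193 genes, each represented by its brightest probe set in a cell type. No further normalization was applied.

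limma 3.58.1 in R 4.3.3 (lmFit and eBayes with an intensity trend) was fitted to all genes, with a mean per group in MEFs. In hepatocytes the technical replicates were averaged and the preparation was a block for treatment comparisons, since preparations deviated together across treatments (median r of 0.56 in dKO and 0.607 in WT over 3 pairs each). Same technical numbers did not pair MEF arrays (median r = 0.016 over 55 pairs). The pipeline was tested on simulated data. Tables and figures used Python 3.11.15, pandas 2.3.3, numpy 2.4.6 and matplotlib 3.10.9. The number of arrays limits the precision. The genes named are the 10 given, some of the up to 4 called genes of each list with the largest difference in a comparison, and the 4 genes most like Ccn1 and Ccn2. Which of those list genes were printed followed no fixed rule, so they do not stand for their lists. The 10 genes and the lists were chosen with earlier results of these data known. Alternatives were quantile normalization, a filter on dim genes, the mean of all probe sets, no intensity trend, array width as a covariate, other blocks, every array as a sample, and leaving out each array or preparation.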

Additional observations from a re-analysis of the deposited data

Results flagged for a closer look

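Each of the 10 genes was tested for an array apart from the rest in the 5 MEF groups of 4 arrays, which gave 50 cases that share their arrays. An array stood apart in 1 of them, where chance gives about 1 in 20. Thbs1 read 9.44 on array 4 of dKO with AICAR, against 9.56 to 9.57 on the other arrays.

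The effect of an activator differed between dKO and WT, by the test of the difference in limma, in 12 cases. With 991 in MEFs the effect in dKO minus that in WT was -0.27 for Ccn1, -0.29 for Ccn2, -0.22 for Ankrd1 and -0.55 for F3. With AICAR in MEFs it was 0.29 for Ccn1, -0.30 for Ccn2, -0.41 for Ajuba, -0.35 for Nuak2, -0.35 for F3 and -0.30 for Thbs1. With 991 in hepatocytes it was 0.57 for Amotl2 and 0.58 for Ajuba.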

How the results depend on the processing

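Of the results for single genes under the alternatives, 1181 in MEFs and 628 in hepatocytes kept their side of the threshold. A call was lost in 43 and 37 and gained in 23 and 37. A change of sign in a result that was not called was not counted. Lats2 with 991 in WT MEFs ran from -0.05 to 0.22 when an array was left out. F3 with 991 in WT hepatocytes ran from -0.17 to 0.20 when a preparation was left out. Of called results, 3 in MEFs and 0 in hepatocytes turned direction. Those that turned did so with the mean of all probe sets, in MEFs with AICAR, Ccn1 to -0.25 and Yap1 to -0.0195 in dKO, and Yap1 to -0.0674 in WT, where probe sets of a gene differ in sign. For 991 in dKO MEFs, 2 genes instead of 1 were called after quantile normalization, among genes at or above the median level, with the mean of all probe sets and with array width as a covariate, and 1 to 2 when an array was left out. Array width as a covariate gave 2 genes instead of 5 for 991 in WT MEFs (3 to 5 when an array was left out) and 2 instead of 4 for the difference of the 991 effects. Over all genes it gave 747 higher and 354 lower instead of 2555 and 1027 for 991 in WT MEFs (1276 and 1046 after quantile normalization), 696 and 514 instead of 342 and 287 for 991 in dKO MEFs, and 93 and 289 instead of 166 and 795 for the difference of the 991 effects. With the technical number as a replicate block in MEFs, the AICAR difference between genotypes had 7 genes instead of 6, and no other count changed. In hepatocytes, without the replicate block the counts were 2 instead of 4 (991 in WT), 1 instead of 2 (difference of the 991 effects), 1 instead of 7 (AICAR in dKO), 1 instead of 3 (AICAR in WT) and 3 instead of 6 (AICAR minus 991). With every array as a sample, which treats technical replicates as independent, they were 5 instead of 0 (991 in dKO), 7 instead of 4 (991 in WT), 4 instead of 2 (difference of the 991 effects), 8 instead of 3 (AICAR in WT) and 4 instead of 0 (difference of the AICAR effects). Leaving out a preparation gave 2 to 4 genes for 991 in WT, 1 for the difference of the 991 effects, 4 to 6 for AICAR in dKO, 1 to 4 for AICAR in WT, 0 to 1 for the difference of the AICAR effects and 3 for AICAR minus 991. For dKO minus WT with vehicle in hepatocytes, the biological number as a replicate block gave 0 genes, and the crossed numbers, chosen after seeing the data, gave 5. The causes of these changes were otherwise not tested, and 2 preparations per genotype and technical replicates alone in MEFs limit every p-value.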
